A study of Mus musculus with 4 samples.

Results

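Histone genes were followed in peak lists of m6A (N6-methyladenosine, an internal methylation of mRNA and other RNAs) from wild-type and Mettl5-/- mouse embryonic stem cells. Members were all genes whose listed name begins as Hist1h to Hist4h, as H1f, H2f or H3f followed by a further character, or as H2af. They were 15 of the 9949 genes with a peak in any list, and they held 42 of 46417 peaks. Of these genes, 8 were replication-dependent histones of the gene clusters, 6 were replacement histones, and 1, H3f3aos, was an antisense RNA that shares the name pattern and encodes no histone. Cells of the C57BL/6N strain were either wild type (2 libraries) or Mettl5-/- (2 libraries, called knockout), and total RNA was fragmented and enriched with an anti-m6A antibody before sequencing (MeRIP-seq). Mettl5 encodes the methyltransferase that places m6A in 18S ribosomal RNA. The labels number the knockout libraries and not the wild-type ones, which are numbered here only as names. They do not say whether libraries of a genotype came from separate clones or cultures, so their spread may be technical. Mettl5 had no peak in any list, and the lists cannot check its deletion. The protocol text also describes differentiation of the cells, while every sample is labelled as embryonic stem cells.

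Histones are the proteins around which DNA is wrapped. The replication-dependent genes lie in clusters and mostly have no introns. They are expressed mainly while DNA is copied, and give mRNAs that normally end in a stem-loop in place of a poly(A) tail. Replacement histones are expressed throughout the cell cycle from genes that for the most part lie outside the clusters, mostly as polyadenylated mRNAs. H2afx is a known mixed case, with a stem-loop form and a polyadenylated form. The m6A of mRNA is placed by another writer than Mettl5, the Mettl3 and Mettl14 complex, often near stop codons and in the 3' untranslated region (UTR).

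The lists held 10821 to 12699 peaks and 7281 to 8338 genes per library, and read depth is unknown here. A peak's strength is given as the percentile of its p-value within its own list (100 is the strongest), and its fold is the authors' enrichment over a background the files do not name. Both are the authors' values and describe a peak within its list. Of 12 stem cell markers 8 had a peak, 7 of them in every library, among them Sox2, Klf4 and Esrrb. Nanog, Zfp42, Dppa5a and Sall4 had none, which does not speak to their expression. Of markers of other cells, 1 of 8 feeder fibroblast genes (Vim, in every library), 5 of 6 neural genes (2 in every library) and 3 of 8 primitive endoderm and trophoblast genes (1, Sox7, in every library) had a peak. The neural genes Sox1 (strength percentiles 88 to 91.3) and Nes (92.3 to 92.9) had strong peaks in all 4 libraries. Their part in the histone results was not tested.

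Few replication-dependent histone genes had a peak at all, while the share of replacement genes with one was near that of all protein-coding genes. RefSeq (GRCm38.p6) lists 67 protein-coding genes with a cluster name, current or older, and 8 of them (11.9%) had a peak. Of 18 protein-coding genes with a replacement name 6 (33.3%) had one, and of all 21900 protein-coding genes 8408 (38.4%). Among the replication-dependent genes the listed ones were 2 of 6 linker H1 genes, 2 of 18 H2A genes, 3 of 18 H2B genes and 1 of 13 H4 genes. None of the 12 replication-dependent H3 genes and none of the 4 replacement H3 genes, H3f3a and H3f3b included, had a peak. The classes follow the gene names and not the place. H3f4, counted as replacement, lies near Hist3h2a on chromosome 11, and H2afj lies near Hist4h4 on chromosome 6. The median genomic span of the RefSeq genes, any introns included, was 492 nt for the replication-dependent and 1595 nt for the replacement genes. It is not the length of the RNA. RNA levels are outside these lists, and absence of a peak cannot be told apart from low expression or from reads lost among near-identical copies. In such bulk samples fewer cells of a type and less RNA per cell cannot be told apart either.

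Promoter sequences of the 2 classes were compared as well. The 140 bases before the RefSeq start are printed for the genes that had a peak in all libraries and whose promoter was in the RefSeq table used (H2afx was not), because these members carry the recurrent peaks described further on. Capitals mark 3 promoter motifs, searched on both strands. They are the CCAAT box (CCAAT), the TATA box (TATAAA) and the octamer bound by Oct factors (ATTTGCAT), and none of them contains another. The first 3 genes are replacement histones and the last 2 replication-dependent ones, each 5' to 3' on its own strand.
H1f0: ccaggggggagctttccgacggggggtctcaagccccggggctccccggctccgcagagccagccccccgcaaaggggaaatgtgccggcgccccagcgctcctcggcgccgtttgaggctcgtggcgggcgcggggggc
H1fx: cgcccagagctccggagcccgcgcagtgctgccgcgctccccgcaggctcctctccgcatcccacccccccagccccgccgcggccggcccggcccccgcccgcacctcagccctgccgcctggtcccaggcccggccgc
H2afj: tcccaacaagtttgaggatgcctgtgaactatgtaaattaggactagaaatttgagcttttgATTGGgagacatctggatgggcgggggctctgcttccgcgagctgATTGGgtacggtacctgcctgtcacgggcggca
Hist1h1c: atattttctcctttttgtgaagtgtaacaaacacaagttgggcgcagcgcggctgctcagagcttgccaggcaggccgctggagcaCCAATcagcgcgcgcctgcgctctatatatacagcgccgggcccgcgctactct
Hist1h4i: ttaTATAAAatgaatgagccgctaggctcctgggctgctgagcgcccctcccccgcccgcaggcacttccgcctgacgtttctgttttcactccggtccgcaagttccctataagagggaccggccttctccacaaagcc

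These stretches lie at chr15:79028072-79028211 (plus strand) for H1f0, chr6:87981483-87981622 (minus strand) for H1fx, chr6:136808108-136808247 (plus strand) for H2afj, chr13:23738667-23738806 (plus strand) for Hist1h1c and chr13:22041363-22041502 (minus strand) for Hist1h4i, all in GRCm38.p6. H1f0 and H1fx held no match in the window, H2afj held CCAAT on the other strand (printed as ATTGG) and Hist1h1c held CCAAT. Hist1h4i held TATAAA at the end of the stretch far from the start. Only exact letters were marked. The similar letters tatatata of Hist1h1c and tataag of Hist1h4i, both nearer the start, are left unmarked. Over the 250 bases before the start, CCAAT was found in 52 of 63 replication-dependent promoters (82.5%), 10 of 17 replacement promoters (58.8%) and 33.8% of all 32851 promoters in the table. TATAAA was found in 46% of replication-dependent, 5.88% of replacement and 12.4% of all promoters, and ATTTGCAT in 22.2%, 5.88% and 1.6%. Some cluster genes lie less than 250 bases apart, such as Hist1h2bl (ending at 21716183) and Hist1h2ai (starting at 21716412). Where such neighbours are read away from each other, the same stretch counts for both, so the promoters may not all be separate sequences. A match describes letters only, wherever they lie in the window, and the peak lists measure RNA and not promoter use.

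Peaks of 6 histone genes recurred in all 4 libraries, and 7 members, H3f3aos among them, were listed in just 1. The 6 were 40% of the 15 members, H3f3aos included, against 57.1% of all genes with a peak. They were the replacement genes H1f0, H1fx, H2afj and H2afx (4 of 6, or 66.7%, near the share of all genes) and the replication-dependent genes Hist1h1c and Hist1h4i (2 of 8, or 25%). The replacement genes H2afy and H2afy2 did not recur in this way. The 7 listed in just 1 library were 46.7%, against 17% of all genes. These were 5 of the 8 replication-dependent genes, H2afy and H3f3aos. Hist2h2be was found in 3 libraries and H2afy2 in 2. The share in all libraries was -17.1 percentage points from that of all genes, and -3.78 points when wild type 1 was left out. Without wild type 1 the replication-dependent genes with a peak were 5 in place of 8. With H2afx counted as replication-dependent, both classes had 3 genes in all libraries.

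**Figure D1:**
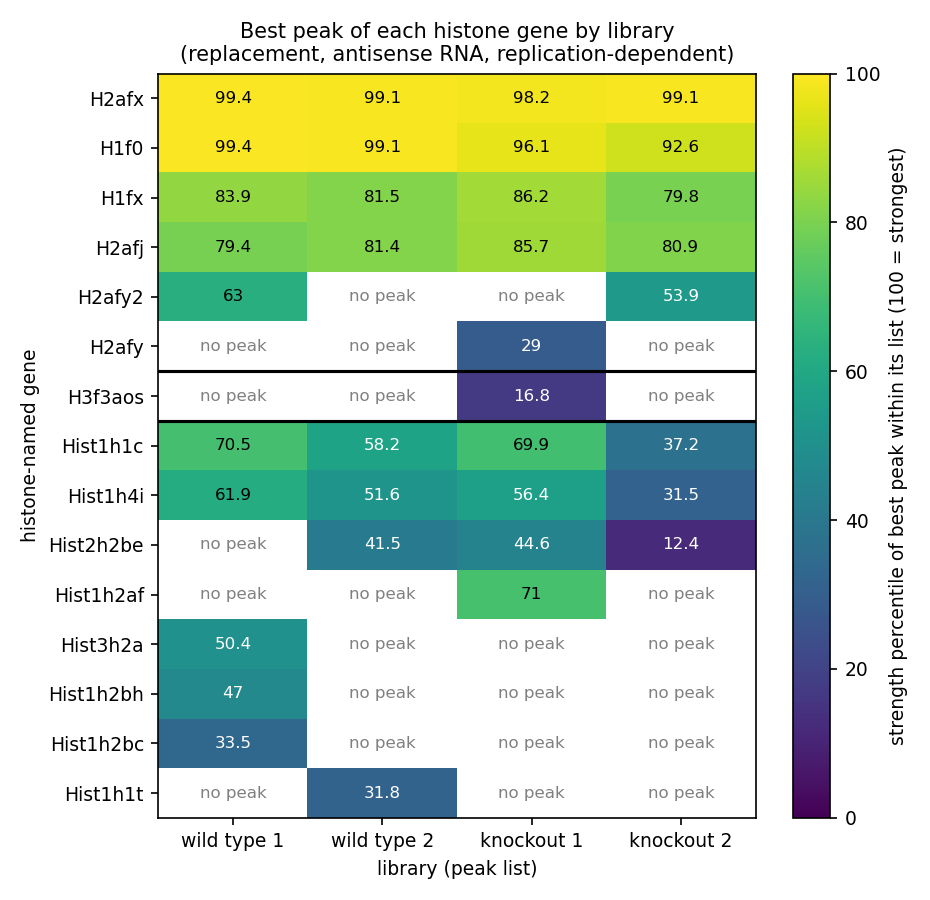
Strength of the best peak of each of the 15 genes in each library, as the percentile of its p-value within that library's list (100 is the strongest); white cells had no peak. The top 4 replacement genes lie between 79.4 and 99.4 in every library, while the replication-dependent genes in all 4 libraries lie between 31.5 and 70.5.

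No histone gene followed the genotype. Of the 15, 0 were wild-type-only (listed in each wild-type library and no knockout library), beside 1.56% of all genes, and 0 were knockout-only (the reverse), beside 2.27%. Shares this low leave a set of 15 genes little room to show either pattern. The number of member peaks was 12 in wild type 1, 9 in wild type 2, 12 in knockout 1 and 9 in knockout 2. Those of knockout 1 are 6 replacement and 5 replication-dependent peaks and that of the antisense RNA H3f3aos. The equal means below depend on counting the H3f3aos peak. Both genotypes had a mean of 10.5 ± 2.12 peaks (SD, n = 2), a difference of 0 (exact permutation test, two-sided, p = 1, where 0.333 is the smallest p possible). As a share of the list these were 0.103%, 0.0803%, 0.0945% and 0.0832% in that order. The 95% Wilson intervals, which cover counting error only, ran from 0.0423% to 0.179% over the 4 libraries and overlapped for every pair.

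Leaving out a library moved genes listed in a single library, and Hist2h2be, which was listed in 3, into a genotype-following pattern. Without wild type 1, Hist1h1t became wild-type-only. Without wild type 2, Hist1h2bc, Hist1h2bh and Hist3h2a became wild-type-only and Hist2h2be knockout-only. Without knockout 2, H2afy, H3f3aos and Hist1h2af became knockout-only. Without knockout 1, no histone gene followed the genotype. In these settings a genotype is judged from a single list, and 4.33% to 10.5% of all genes then follow it in a given direction.

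Among the linker histones, which bind DNA between nucleosomes, the replacement gene H1f0 (ENSMUSG00000096210), found in many non-dividing cells, carried a strong and wide peak in each library. The peaks covered 1485 bases in wild type 1, 1515 in wild type 2, 1664 in knockout 1 and 1486 in knockout 2, where the median peak of a list covered 331 to 360. In every list this width was at or above the 95.5th percentile. The authors' fold enrichment of the H1f0 peak was 1010 in wild type 1, 840 in wild type 2, 1050 in knockout 1 and 182 in knockout 2. Its strength percentile was 99.4, 99.1, 96.1 and 92.6 in the same order. The wild-type percentiles (99.3 ± 0.146) and the knockout ones (94.4 ± 2.48; SD, n = 2 each) did not overlap. Both wild-type p-values had no finite log10, so those percentiles are the tied top of each list and their SD reflects ties. Ranks within separate lists, 2 per genotype, cannot tell whether the peak changed. The fold belongs to its own list and its background is not named, so the lower fold of knockout 2 is a description and not a difference between genotypes. The peaks lay on chromosome 15 between positions 79028271 and 79029934 (mm10), were classed as coding sequence, and had 1426 bases in common, 85.7% of their union.

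H1fx (ENSMUSG00000044927; H1f10 in RefSeq), another replacement linker histone, had a peak over the coding sequence on chromosome 6, positions 87980747 to 87981489, in each library. Its fold was 45.2 in wild type 1, 26.3 in wild type 2, 85.7 in knockout 1 and 17.9 in knockout 2. Its strength percentiles were 83.9, 81.5, 86.2 and 79.8. The genotypes overlapped: the wild-type mean percentile was 82.7 ± 1.73 and the knockout mean 83 ± 4.5 (SD, n = 2 each). The peak reached the promoter window of the RefSeq table (250 bases before to 50 after the start) in wild type 1 (27 bases) and knockout 1 (57 bases), and ended before it in the other libraries. The 27 bases that both covered are shown because among the members only the H1fx peaks reached the gene's own promoter window, and lie at chr6:87981433-87981459 on the minus strand.
H1fx: gcgcgcccccagtcccccggcgccgcc

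That stretch held neither GAC nor AAC, the letters at the core of the common m6A motif, searched on the sense strand. Of the 32851 windows of that length at the same place in the table, 45.9% held at least 1 of them. The absence says nothing of where in the peak of 564 to 743 bases the mark lies.

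Hist1h1c (ENSMUSG00000036181; H1f2 in RefSeq) encodes a replication-dependent linker histone and had a 3' UTR peak in each library. Its fold was 67.2 in wild type 1, 70.3 in wild type 2, 95.3 in knockout 1 and 24.7 in knockout 2, and its strength percentile 70.5, 58.2, 69.9 and 37.2. Knockout 2 was the lowest on both scales and also had the narrowest peak, 301 bases against 660 to 750. The percentiles of the genotypes overlapped, with a wild-type mean of 64.4 ± 8.68 and a knockout mean of 53.5 ± 23.1 (SD, n = 2 each). Wild type 1 had a further peak in the coding sequence, of 211 bases at a fold of 1.39. Hist1h1t, a linker histone gene of the same cluster known from the testis, had a coding sequence peak in wild type 2 alone (fold 17.8, percentile 31.8).

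Among H2A genes, H2afx (ENSMUSG00000049932; H2ax in RefSeq) encodes the variant phosphorylated at DNA breaks and had the strongest peak of the set beside H1f0. Its fold was 224 in wild type 1, 275 in wild type 2, 542 in knockout 1 and 136 in knockout 2, at strength percentiles of 99.4, 99.1, 98.2 and 99.1. The p-value had no finite log10 in 3 of the libraries, so these peaks tie with others at the top of their lists. In knockout 1 the negative log10 p-value was 1990. The peak began 450 to 656 nt after the RefSeq start on chromosome 9 and in every library ended at position 44336077, the last base of the RefSeq gene. Its class was an exon with no finer class.

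H2afj (ENSMUSG00000060032; H2aj in RefSeq), a replacement H2A, carried 2 overlapping peaks in each list. One was an unbroken peak of 532 to 739 bases that began 55 to 262 nt after the start. The other was a spliced peak of 404 to 491 bases, with its first block ending 466 nt and its second running from 1351 to 1545 nt after the start. The unbroken peak had folds of 62.5, 44.6, 34 and 42.9 and the spliced one 34.3, 34, 40.1 and 46.3 for wild type 1 and 2 and then knockout 1 and 2. The folds of the genotypes overlapped for the unbroken peak, where knockout 1 was lowest, and the listed folds of the spliced peak were higher in both knockout libraries, each against its own unnamed background. In the same order the strength percentiles were 79.4, 81.4, 85.7 and 80.9 for the unbroken peak. For the spliced one they were 63.4, 67.4, 80.6 and 66.4. On this scale the genotypes overlapped for both peaks. Joined by their shared bases the peaks made 1 region, so the 8 listed peaks of H2afj are not 8 separate sites. A peak of Gm44364, a predicted miRNA gene on the opposite strand, lay inside the unbroken peak in every library at folds of 1.4 to 6.56. No source used here states strandedness, and reads of H2afj and Gm44364 cannot be told apart.

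**Figure D2:**
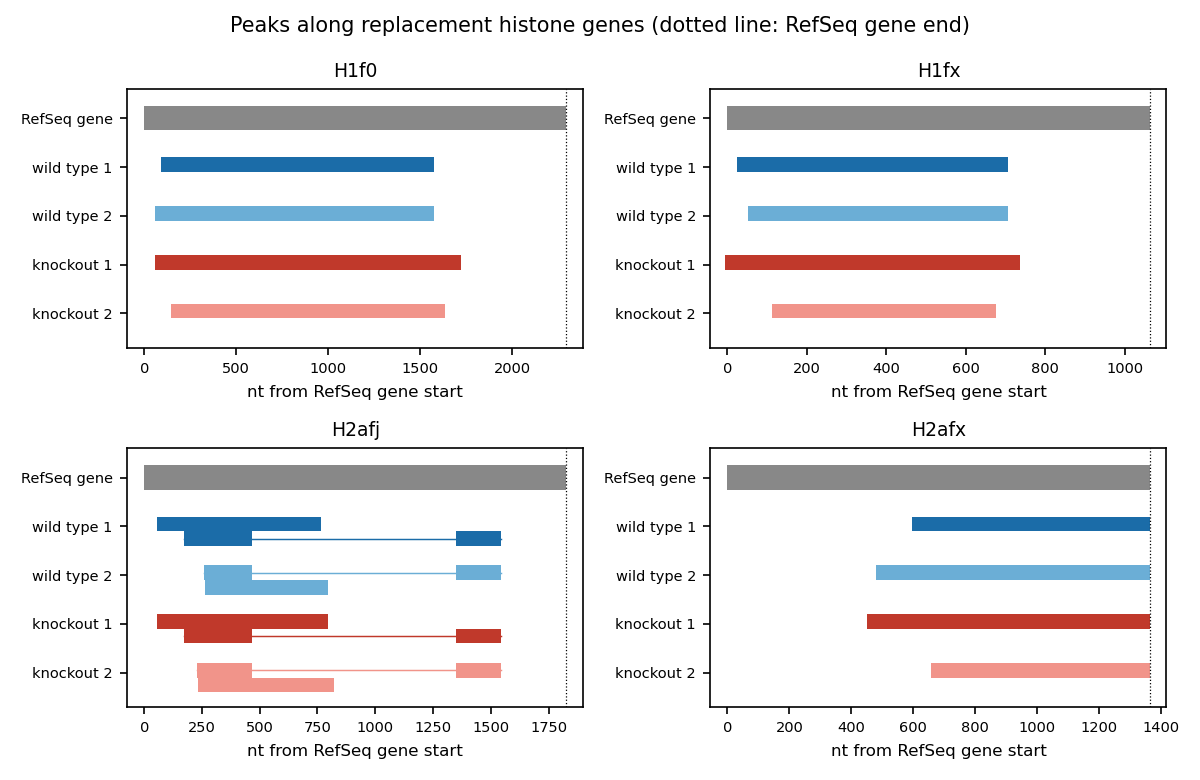
Position of each peak along the 4 replacement genes found in all libraries, in nt from the RefSeq start (0); the grey bar is the RefSeq gene, coloured bars are exon blocks of a peak and thin lines join blocks of 1 peak. H1f0 and H1fx peaks begin no later than 148 nt after the start, H2afx peaks end at its last base, and H2afj has an unbroken and a spliced peak in each library.

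The macroH2A genes, whose proteins carry a large extra domain and mark silent chromatin, had weaker peaks. H2afy2 had a 3' UTR peak of 299 bases in wild type 1 (fold 7.52, percentile 63) and in knockout 2 (fold 12.2, percentile 53.9), sharing 270 bases on chromosome 10 and split across the genotypes. H2afy had a peak of 181 bases in knockout 1 alone, at a fold of 2.52 and a percentile of 29. The replication-dependent H2A gene Hist1h2af had a coding sequence peak in knockout 1 alone, at a fold of 2 but a percentile of 71. It overlapped a peak of the opposite-strand miRNA gene Gm44297 at a fold of 1.85. Hist3h2a had a coding sequence peak in wild type 1 alone (fold 21.7, percentile 50.4), and the same place was also listed for Trim17 on the same strand (fold 18.8) and for Gm44313 on the opposite strand (fold 3.76). The gene behind the last peak is therefore uncertain, as it is for any coding sequence peak of H2A and H2B genes, whose copies are nearly identical.

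The H2B members were all replication-dependent. Hist2h2be, known to give a polyadenylated mRNA in some cells, had a 3' UTR peak in wild type 2 (fold 28.9, percentile 41.5), knockout 1 (fold 20.8, percentile 44.6) and knockout 2 (fold 10.5, percentile 12.4), with 180 bases in common. Knockout 1 held a second peak near the start of the gene, of 150 bases at a fold of 11.2. Hist1h2bc had a 3' UTR peak of 149 bases in wild type 1 alone (fold 15.9, percentile 33.5), and Hist1h2bh a coding sequence peak of 151 bases in wild type 1 alone (fold 3.61, percentile 47).

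The H4 gene Hist1h4i (ENSMUSG00000060639; H4c9 in RefSeq) had a 3' UTR peak in each library on chromosome 13, positions 22040694 to 22040984. Its fold was 65.8 in wild type 1, 18.7 in wild type 2, 35.2 in knockout 1 and 18.7 in knockout 2, and its strength percentile 61.9, 51.6, 56.4 and 31.5. Folds of the genotypes overlapped, and 233 bases were common to all libraries, 80.1% of the union. No H3 gene had a peak. The antisense RNA H3f3aos, a member by name only, had a peak of 240 bases in knockout 1 at a fold of 10.4 and the percentile 16.8 on chromosome 1.

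The recurrent peaks of the replication-dependent genes lay past the place where their RefSeq genes end. Between 91.5% and 100% of the bases of the 4 Hist1h1c 3' UTR peaks, and between 90.5% and 100% of those of the 4 Hist1h4i peaks, lay downstream of the RefSeq gene. Those genes are 725 and 403 nt long, and their peaks ended 1350 to 1410 and 639 to 668 nt after the start. So 8 of 18 replication-dependent peaks, from 2 genes, had over 50% of their bases past the RefSeq end, against 2.02% of the 43900 peaks of all genes that could be placed. Among 3' UTR peaks it was 8 of 12, against 3.45% of 17662. No replacement peak did (0 of 23). The other 4 replication-dependent 3' UTR peaks belong to Hist2h2be and Hist1h2bc, whose RefSeq genes span 2667 and 8282 nt of the genome. Counted along the genome, any introns included, these peaks began 1833 to 1892 and 7998 nt after the start. Both places are beyond the median span of a replication-dependent gene. RefSeq and the annotation behind the lists differ in where these transcripts end, since the lists class the same bases as 3' UTR.

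**Figure D3:**
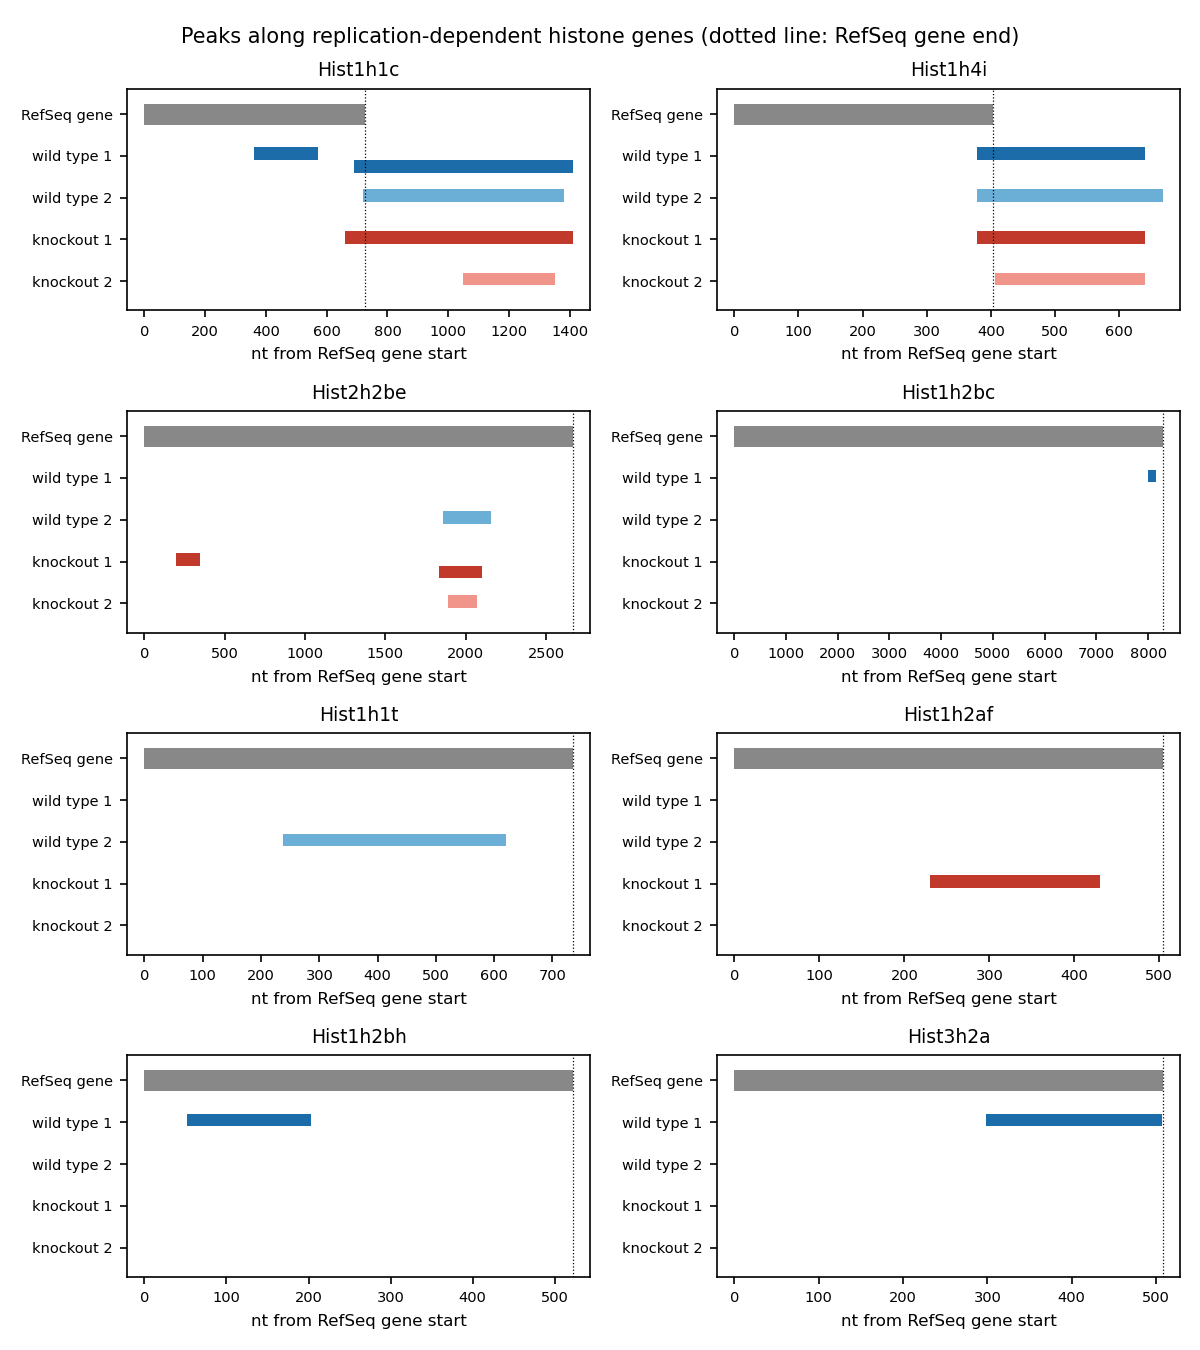
Position of each peak along the 8 replication-dependent genes, in nt from the RefSeq start (0); the grey bar is the RefSeq gene, the dotted line its end, and coloured bars the peaks of each library. The 3' UTR peaks of Hist1h1c and Hist1h4i lie mostly past the dotted line. The 4 genes in the lower panels have coding sequence peaks only, inside the gene and in a single library each.

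Replication-dependent peaks outside the 3' UTR had low enrichment. These 6 peaks, 1 in each of 6 genes, had a median fold of 7.4 (range 1.39 to 21.7), and none reached the median fold of its list. The 12 in the 3' UTR had a median fold of 26.8 (range 10.5 to 95.3), and 7 of them were above the median fold of their list. Among replication-dependent peaks the fold and the p-value parted most for 3 coding sequence peaks, those of Hist1h1c, Hist1h2af and Hist1h2bh. Their folds of 1.39, 2 and 3.61 stood at the 0.047th, 0.547th and 2.71st percentile of fold, and their p-values at the 43.8th, 71st and 47th percentile of strength. The split was not particular to them. The replacement gene H2afy2 had a 3' UTR peak in wild type 1 at the 9.38th percentile of fold and the 63rd of strength. The part of RNA abundance in this was not tested. The 3 coding sequence peaks were singled out after their values were seen.

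**Figure D4:**
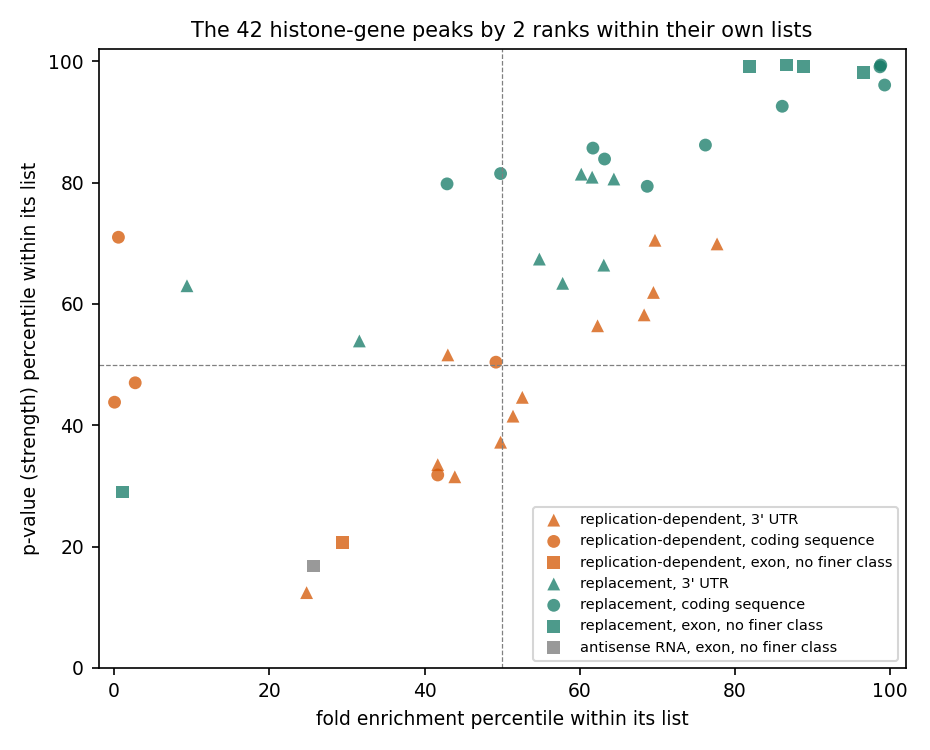
Percentile of the p-value against percentile of the fold enrichment, each within the peak's own list, for the 42 peaks of the members, H3f3aos included. Colour gives the class and shape the transcript part, and dashed lines mark the list medians. Replacement peaks sit above the p-value median in 22 of 23 cases, and 3 replication-dependent coding sequence peaks sit, with the H2afy peak, at the far left, with folds of 1.39 to 3.61.

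By strength, replacement peaks lay above the median p-value of their list in 22 of 23 cases, and replication-dependent peaks in 8 of 18. Replacement peaks were also wider, with a median of 683 bases (20 of 23 above the median width of their list), where the replication-dependent ones had 262 (4 of 18). The same genes recur in several lists, so these counts are no more than a description. The median best peak of a histone gene, with H3f3aos counted in knockout 1, stood at the percentiles 66.7, 69.8, 70.4 and 66.8. These are for wild type 1 and 2 and then knockout 1 and 2. For all genes it was 59.6, 59.1, 59.9 and 59.1. For the replacement genes alone it was 83.9, 90.3, 86.2 and 80.9, and for the replication-dependent genes 50.4, 46.6, 63.1 and 31.5. Wild type 2 misses the weaker replacement genes H2afy and H2afy2, so its median is over 4 genes. Ranked by fold in place of the p-value, the median over histone genes lay below that of all genes in wild type 2 and knockout 2.

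By transcript part, 3' UTR peaks made up 12 of 18 replication-dependent peaks (66.7%) and 8 of 23 replacement peaks (34.8%), against 38.5% of all peaks. Coding sequence peaks made up 27.8% and 43.5%, against 35.2%. No histone peak was classed in the 5' UTR, where 4.67% of all peaks lay. Peaks of the same gene in several lists are counted separately here. The 12 came from 4 genes and the 8 from 2, so the shares are a description. The class can also differ between lists. The unbroken H2afj peak was classed as coding sequence in wild type 1 and knockout 1 and as 3' UTR in wild type 2 and knockout 2.

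Several genes that make, process or carry histones had strong peaks in every library, and others had weaker peaks or none. Of 19 processing genes 14 had a peak, where 38.4% of all protein-coding genes did. Of these 14, 6 had a peak in all libraries, where 57.1% of all genes with a peak did. Of the 14, 0 were wild-type-only and 0 knockout-only, beside 1.56% and 2.27% of all genes. Casp8ap2, needed for histone gene expression, was among the strongest, at percentiles of 99.4, 98, 99.5 and 99.1 for wild type 1 and 2 and then knockout 1 and 2. Zfp473, a zinc finger protein of histone pre-mRNA processing, stood at 90, 91.5, 92.1 and 90.8. Slbp, which binds the histone stem-loop, had weak peaks in wild type 1 and knockout 1 (folds of 2.08 to 2.46). Npat, an activator of the histone clusters, had peaks in 3 libraries and none in knockout 1.

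Of 27 histone chaperone and deposition genes 19 had a peak, beside the same 38.4%. In all libraries 12 of these 19 had one, such as Asf1a, Atrx and Srcap, beside the same 57.1%. Their strength varied, and Asf1a stood at percentiles of 29.2 to 52.9 where Srcap stood at 95 to 99.1. Ssrp1, a subunit of the FACT chaperone, was the only wild-type-only gene of that list, at percentiles of 73 and 63.2. Chaf1a, the large subunit of chromatin assembly factor 1, was the only knockout-only one, at 65 and 97.6 with folds between 2.56 and 121. Each is 1 of the 19 chaperone genes with a peak, beside 1.56% and 2.27% of all genes with a peak.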

How the data were processed

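MeRIP-seq peak lists of 2 wild-type and 2 Mettl5 knockout libraries were used. Per the submitters' processing notes HISAT2, HOMER and mm10 were involved. The peak caller, input and strandedness were not given in the sources used here. The authors deposited 1 list per library. Per the file headers each deposited peak has a p-value, its log10 and that of an adjusted p-value (used as scores), and a fold enrichment, a ratio to an unnamed background. These are the authors' values, used only within a list. Peaks off the reference chromosomes (3 to 6 per library) were left out. Strength is the percentile of the log10 p-value in its list, with the strongest peak taken for each gene. Peaks sharing at least 1 exonic base, whatever the strand, formed 1 region. Names were matched to RefSeq (GRCm38.p6) by symbol or synonym (93% of names, 14 of 15 members); promoters were held for 11 members. Members and lists were chosen with earlier results of these data known. Every member is accounted for; the rule gave values in every library to members found in all libraries, those following the genotype, and the 3 strongest and 3 weakest others. Presence and region counting were tested on simulated data. Alternatives were the stronger 50% of each list, an adjusted p-value under 0.05, equal list length, other overlaps, other strength measures, the class of H2afx and leaving out each library. Python 3.11.15, numpy 2.4.6, pandas 2.3.3, scipy 1.17.1 and matplotlib 3.10.9 were used.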

Additional observations from a re-analysis of the deposited data

How the results depend on the processing

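Of the values compared with the main setting, 49 stayed within limits that differ by kind and 12 did not; the cause was not tested. The limits were a ratio of 1.5 for counts, the 95% Wilson interval of the main share (wide with 15 genes) for the share in all libraries, 1 SD between libraries of a genotype for the difference in peaks, and 1 SD over the 4 libraries for the median strength. Within its limit, the gap of -17.1 percentage points to all genes still ran from -23.7 to -3.78 when single libraries were dropped. The stronger 50% of each list left 4 replication-dependent genes with a peak in place of 8. When single libraries were dropped, the wild-type-only genes ranged from 0 to 3, the knockout-only genes from 0 to 3 and the replication-dependent genes from 5 to 8. With fold in place of the p-value the median strength of histone genes was 65.9 in wild type 1, 55.8 in wild type 2, 63.3 in knockout 1 and 46.8 in knockout 2. The same median by fold over all genes was 59.6, 59.6, 59.9 and 58.9 in that order. By fold, histone genes were thus below all genes in wild type 2 and knockout 2. With the mean over a gene's peaks the median strength of histone genes was 62.5 in wild type 1, 66.3 in wild type 2 and 63.8 in knockout 2. The counts of 0 genotype-following genes held with equal list length and with an adjusted p-value under 0.05. No paired analysis was possible because only the knockout labels number their replicates and no model was fitted. Motif alternatives in peaks were not run, since the tables used hold no peak sequences. Read depth is unknown, so a gene absent from a list may have been missed.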

Other observations

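Other transcripts of the histone cluster on chromosome 3 carried peaks. Gm20632, an antisense RNA gene, had a peak in wild type 1 (fold 7.95, percentile 27.5), wild type 2 (fold 36.2, percentile 47.2) and knockout 1 (fold 24.8, percentile 49.7), at positions 96239483 to 96239722 (mm10). The peak lies between the RefSeq genes of Hist2h3c2, which ends at 96239127, and Hist2h2aa2, which starts at 96239779. Gm38227, listed with the class TEC and lying after the RefSeq end of Hist2h4 at 96263317, had a peak in wild type 2 (fold 13.3, percentile 23.2) and knockout 1 (fold 10.4, percentile 16.8). Neither had a peak in knockout 2, and Gm38227 had none in wild type 1 either. The knockout 2 list is the shortest, with 10821 peaks. The wild type 1 list (11696) is longer than that of wild type 2 (11201). The part of list length was not tested.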
